A study of Mus musculus with 4 samples.

Results

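The genes described here are the 40 mouse nuclear receptor genes outside the circadian clock, from the thyroid hormone, retinoid, vitamin D and steroid receptors to the orphan receptors, and the sites near them that YAP occupied in epidermis. YAP is the transcriptional co-activator that the Hippo pathway restrains, and TEAD proteins bring it to DNA. Its sites were mapped by ChIP-seq in epidermal cells of adult mice aged 18 to 25 weeks, all sampled at ZT4, that is 4 hours into the light phase. One group was Bmal1 WT and the other Bmal1 KO, also written Bmal1cKO in the labels; Bmal1 (Arntl) encodes a core activator of the clock, and the labels name neither the deleting driver nor the cells it acts in. With 1 pooled list of anti-YAP peaks per genotype, and no statement of what was pooled, values carry no replicate error and no test between genotypes was run. A peak was taken as linked to a receptor gene when its summit, its highest point, lay inside the mm10 span of the gene, or within 100 kb of it with no other protein-coding gene nearer; the farthest lay 84702 bp away, and the nearest WT summit to Nr5a2, 124599 bp away, was left out. By this rule 120 of 36576 WT peaks and 58 of 14879 KO peaks were linked to the 40 genes. The 2 inputs of the series were not analysed here, and YAP binding at a gene does not measure its transcript, so the labelled tissue and genotype could not be checked from these peaks.

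Nuclear receptors are transcription factors with a zinc-finger DNA-binding domain and a pocket that, in many of them, holds a small lipid-soluble ligand. Many bind DNA as a pair with a retinoid X receptor at repeats of the hexamer AGGTCA, while steroid receptors pair with themselves at a related element. In skin they are known for the control of keratinocyte differentiation, barrier lipids, the hair cycle and inflammation.

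YAP peaks were unevenly spread over the family. In WT, 27 of the 40 genes had a linked peak, and 53.2% of all 21627 protein-coding genes did. In KO, 18 genes had one, and 30.1% of all genes did. A WT peak that overlapped a KO peak was present at 20 of the 40, against 30.0% of all genes. Receptor genes are longer than most, with a median span of 51.8 kb against 17.3 kb, and genes of the same length deciles would give 25.8 genes with a WT peak and 15.9 with a KO peak. The number of peaks per length of span was also close to that of all genes, at 0.191 inside peaks per 10 kb against 0.190. Vdr (14 peaks), Rxra (13), Nr6a1 (10) and Rarg (9) together held 46 of the 120 peaks, and 9 genes had a single peak.

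**Figure D1:**
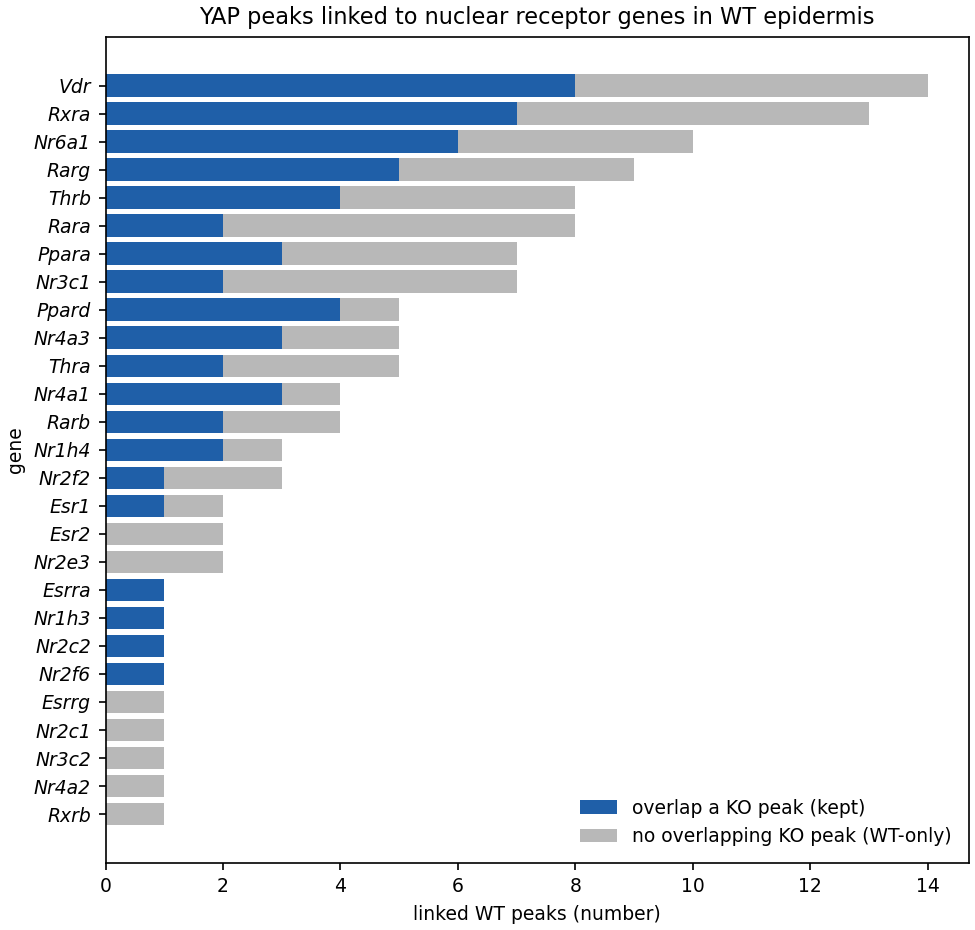
Number of WT peaks linked to each of the 27 nuclear receptor genes with at least 1 (horizontal axis, number of peaks), split into those that overlap a KO peak (blue) and those that do not (grey). Vdr has 14 peaks with 8 kept and Rxra 13 with 7 kept, while 7 genes have no kept peak.

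Below, a WT peak that shares 1 bp or more with any KO peak is called kept, and one that shares none is called WT-only. Of the 120 peaks, 59 were kept (49.2%, exact 95% Clopper-Pearson interval 39.9 to 58.4, which covers counting error only), against 39.1% of all WT peaks. With the WT list reduced by score to as many peaks as the KO list, 46 of 57 were kept (80.7%), against 77.8% of all peaks in that list, and 17 of the 40 genes had a WT peak, against 31.1% of all genes. The 120 peaks were stronger than the average, with a median of 66.5 reads at the WT summit against 61 for all WT peaks, and all WT peaks with the same reads would give 46.4% kept. The reads are whole numbers recovered from the deposited fold and p-value of each peak, in units that are the same in both lists. All 27 peaks with at least 100 reads were kept, while only 9 of the 63 below 70 reads were (12.7% over all WT peaks below 70 reads). In the range from 70 to 79 reads, 13 of 18 were kept against 54.9% of all WT peaks, and from 60 to 69 reads 4 of 19 were kept against 31.8%. With 50% reciprocal overlap 50 of the 120 were kept, against 32.1% of all WT peaks, and with KO summits within 200 bp 59 were, against 37.9%. None of the 58 KO peaks linked to these genes was KO-only, a class that makes up 1.03% of the KO list.

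**Figure D2:**
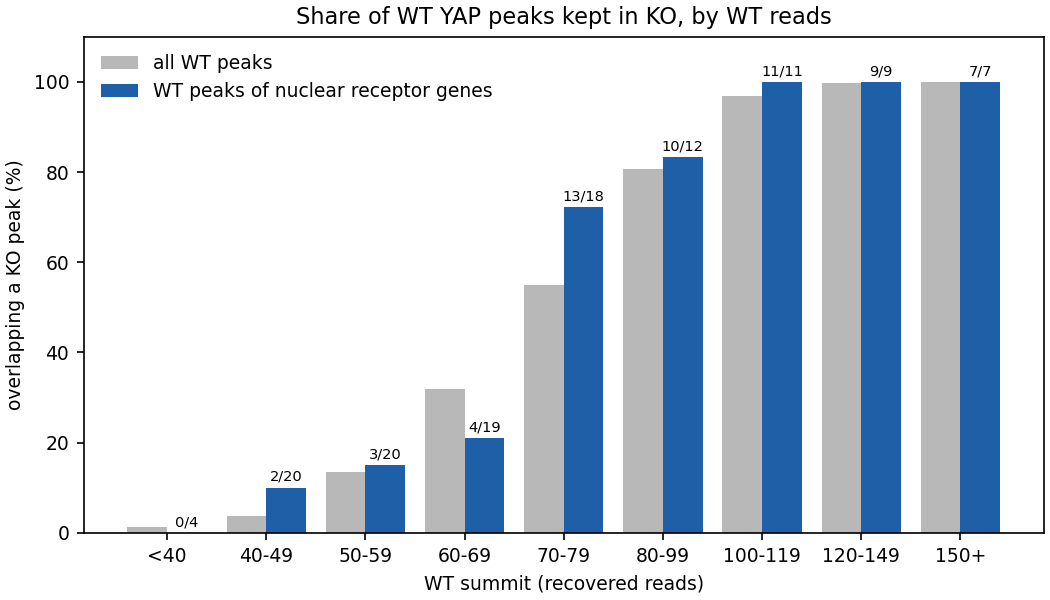
Share of WT peaks that overlap a KO peak (vertical axis, percent) by recovered reads at the WT summit (horizontal axis), for all WT peaks (grey) and for the 120 peaks of nuclear receptor genes (blue, with the number kept over the number of peaks). Both rise from near 0 in the weakest class. From 100 reads on they reach 100% of the receptor peaks and 96.8% or more of all WT peaks.

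Where a peak was kept, its KO summit held fewer reads. This was so at all 59 kept peaks, and at 99.5% of all kept WT peaks. The median over the 59 was 92 reads in WT and 50 in KO. Above the even-spread background of 9.63 reads, the log2 ratio of KO to WT reads had a median of -0.86, against -0.88 for all kept peaks. All 16 receptor peaks with at least 120 WT reads were kept, as were 3686 of 3692 such peaks in the whole WT list. Over the 16 the median log2 ratio was -0.82 (interquartile range -0.97 to -0.76), against -0.88 for the 3686. The SD of the log2 ratio between those 16 sites was 0.201, against 0.248 for all strong sites. The SE of each of the 16 ratios from counting alone was 0.161 to 0.252, so this SD is of the size of counting error. At weak sites a ratio exists only where the KO peak passed the caller's limit, so low ratios are missing there. The median shift between WT and KO summits was 31 bp, against 33 bp for all kept peaks.

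**Figure D3:**
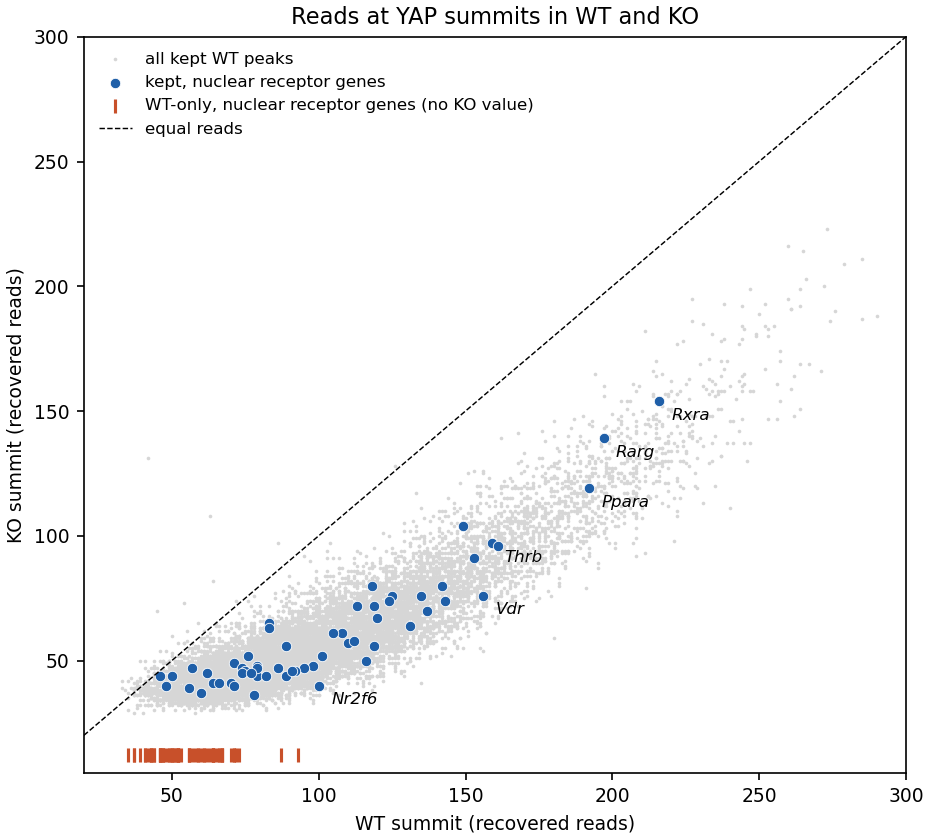
Recovered reads at the WT summit (horizontal axis) and at the overlapping KO summit (vertical axis) for all kept WT peaks (grey) and the 59 kept peaks of nuclear receptor genes (blue); red ticks give the WT reads of the 61 WT-only receptor peaks, which have no KO value. The blue points lie below the dashed line of equal reads and within the grey cloud, from Nr2f6 (100 and 40 reads) to Rxra (216 and 154).

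Most of these sites, like most linked WT peaks, lay within the genes and away from promoters. Of the 120 peaks, 83 (69.2%, 60.1 to 77.3) had their summit inside a receptor gene, against 57.2% of all linked WT peaks. Receptor genes are longer than most, as given above, and this share was not adjusted for length. Within 2 kb of either end of the span lay 19.2% (12.6 to 27.4), against 28.7%. For the 108 peaks of genes with an annotated start in the RefSeq promoter table, 18 (16.7%) lay within 1 kb of a start, against 24.6% of all linked peaks of such genes. The median distance to the nearest start was close, 12710.5 bp for the 108 peaks against 12818.5 bp. Beyond 10 kb lay 52.8% of the 108, against 54.2%. By place, kept peaks numbered 9 of 18 within 1 kb of a start and 46 of 90 farther away, with wide intervals (26.0 to 74.0% and 40.3 to 61.8%). All WT peaks with the same reads would give 47.5% and 47.0% kept.

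Among the receptors for retinoids and their common partner, Rxra and Rarg carried the strongest sites. Rxra encodes the retinoid X receptor that is the usual heterodimer partner in keratinocytes. Its strongest peak, at chr2:27744413-27745319 inside the gene and 35722 bp downstream of the nearest annotated start, had the most WT reads of any receptor gene, 216 (Poisson 95% interval 188 to 247) in WT and 154 (131 to 180) in KO. The log2 ratio of -0.52 (counting SE 0.161) was the highest of the 16 strong receptor sites, and 88.9% of kept peaks with WT reads within 10% of it had a lower one. Its other strong peaks had 161 and 96, 143 and 74, and 124 and 74 reads in WT and KO, the last 45255 bp upstream of the gene. The remaining 9 peaks had 46 to 92 WT reads, and 3 of them were kept. One of the 9, with 66 reads, overlapped 2 KO peaks. Of all 13 Rxra peaks 7 were kept, and all WT peaks with the same reads would give 6.46. The peak at chr2:27675942-27677125, next to the 5′ end of the gene, had 92 and 46 reads. Rxrb, a second retinoid X receptor gene, had 1 peak of 67 reads, 105 bp downstream of an annotated start, and it was WT-only. Rxrg had none, and the nearest WT summit lay 204220 bp away.

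Rarg encodes the main retinoic acid receptor of the epidermis, and 7 of its 9 peaks lay inside its short span of 22.6 kb, 3.10 per 10 kb. The strongest, at chr15:102255617-102256327, 1550 bp downstream of the outer annotated start, had 197 (170 to 227) reads in WT and 139 (117 to 164) in KO, a log2 ratio of -0.53 (counting SE 0.170). Close to it, nearer to the start, lay the WT-only receptor peak with the most reads, at chr15:102256839-102257495, 293 bp downstream of the start, with 93 WT reads. The 2 neighbours thus differ in their call, and of all WT peaks with 80 to 99 reads 80.7% were kept. A strong peak at chr15:102246471-102247357, 502 bp upstream of the inner start, had 153 and 91 reads. Both promoter windows are shown because kept sites and the WT-only site of Rarg lie beside them. Capitals mark the hexamer AGGTCA, read here as its reverse complement TGACCT.
Rarg outer promoter, chr15:102257473-102257772, minus strand: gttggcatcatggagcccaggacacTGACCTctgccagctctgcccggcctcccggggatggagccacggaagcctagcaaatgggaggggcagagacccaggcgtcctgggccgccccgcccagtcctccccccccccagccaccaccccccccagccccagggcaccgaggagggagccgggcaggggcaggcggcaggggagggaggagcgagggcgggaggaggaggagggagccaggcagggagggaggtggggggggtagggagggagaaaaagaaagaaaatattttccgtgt 
Rarg inner promoter, chr15:102246451-102246750, minus strand: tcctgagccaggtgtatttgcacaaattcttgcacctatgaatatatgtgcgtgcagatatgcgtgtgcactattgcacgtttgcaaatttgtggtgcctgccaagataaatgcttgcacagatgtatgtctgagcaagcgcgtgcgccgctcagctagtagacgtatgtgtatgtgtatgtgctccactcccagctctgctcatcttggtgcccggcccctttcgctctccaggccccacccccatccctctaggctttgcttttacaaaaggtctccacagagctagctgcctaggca
The outer window held the hexamer at position -225 from the start and no other of the motifs searched, and the inner window held none of them. The remaining Rarg peaks had 57 to 112 WT reads, and 3 of 6 were kept. They include a peak 5283 bp upstream with 112 and 58 reads. Of all 9 Rarg peaks 5 were kept, against 5.41 from reads.

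Rara, the receptor gene for retinoic acid that is expressed in most tissues, had 8 peaks but only 2 kept ones. At chr11:98932693-98933803 it had 120 and 67 reads, and at chr11:98935922-98936524 it had 108 and 61 reads, both inside the gene, 4224 and 1465 bp upstream of an annotated start. The other 6 peaks had 46 to 62 WT reads and were WT-only. Reads alone would give 2.76 kept peaks. Rarb, itself a known retinoic acid target, had 4 peaks over a span of 651 kb. The stronger pair, with 113 and 72 and with 110 and 57 reads, was kept, and the weaker pair, with 59 and 52 WT reads, was not.

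Vdr, the vitamin D receptor gene, which keratinocytes need for the hair cycle, had the most peaks of the family, 11 of 14 inside its span of 53.9 kb. It kept 8 peaks, against 6.80 from reads. The strongest, at chr15:97875236-97876437, had 156 (132 to 182) WT and 76 (59.9 to 95.1) KO reads. The next, at chr15:97860459-97861679, had 149 (126 to 175) and 104 (85.0 to 126) reads. The log2 ratios of these 2 sites were -1.14 (counting SE 0.226) and -0.56 (0.201), so sites of 1 gene and nearly equal WT reads gave different KO values, although the intervals of the 2 ratios overlap. Over the 8 kept peaks the median was -0.60, but they include peaks of 48 and 56 WT reads, a strength at which low ratios are missing. Of the 8, 3 had ratios above those of 90% of kept peaks with WT reads within 10% of theirs. Over all 59 kept receptor peaks 5 did. The 3 at Vdr were the peak of 149 reads and 2 with 83 WT reads each, which had 65 and 63 KO reads. The peak nearest the start, 364 bp upstream of it, had 43 reads and was WT-only. The xenobiotic receptor genes Nr1i2 and Nr1i3, which encode PXR and CAR, had no linked peak. Near Nr1i3, a WT peak of 93 reads lay 3867 bp away and was linked to Apoa2.

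**Figure D4:**
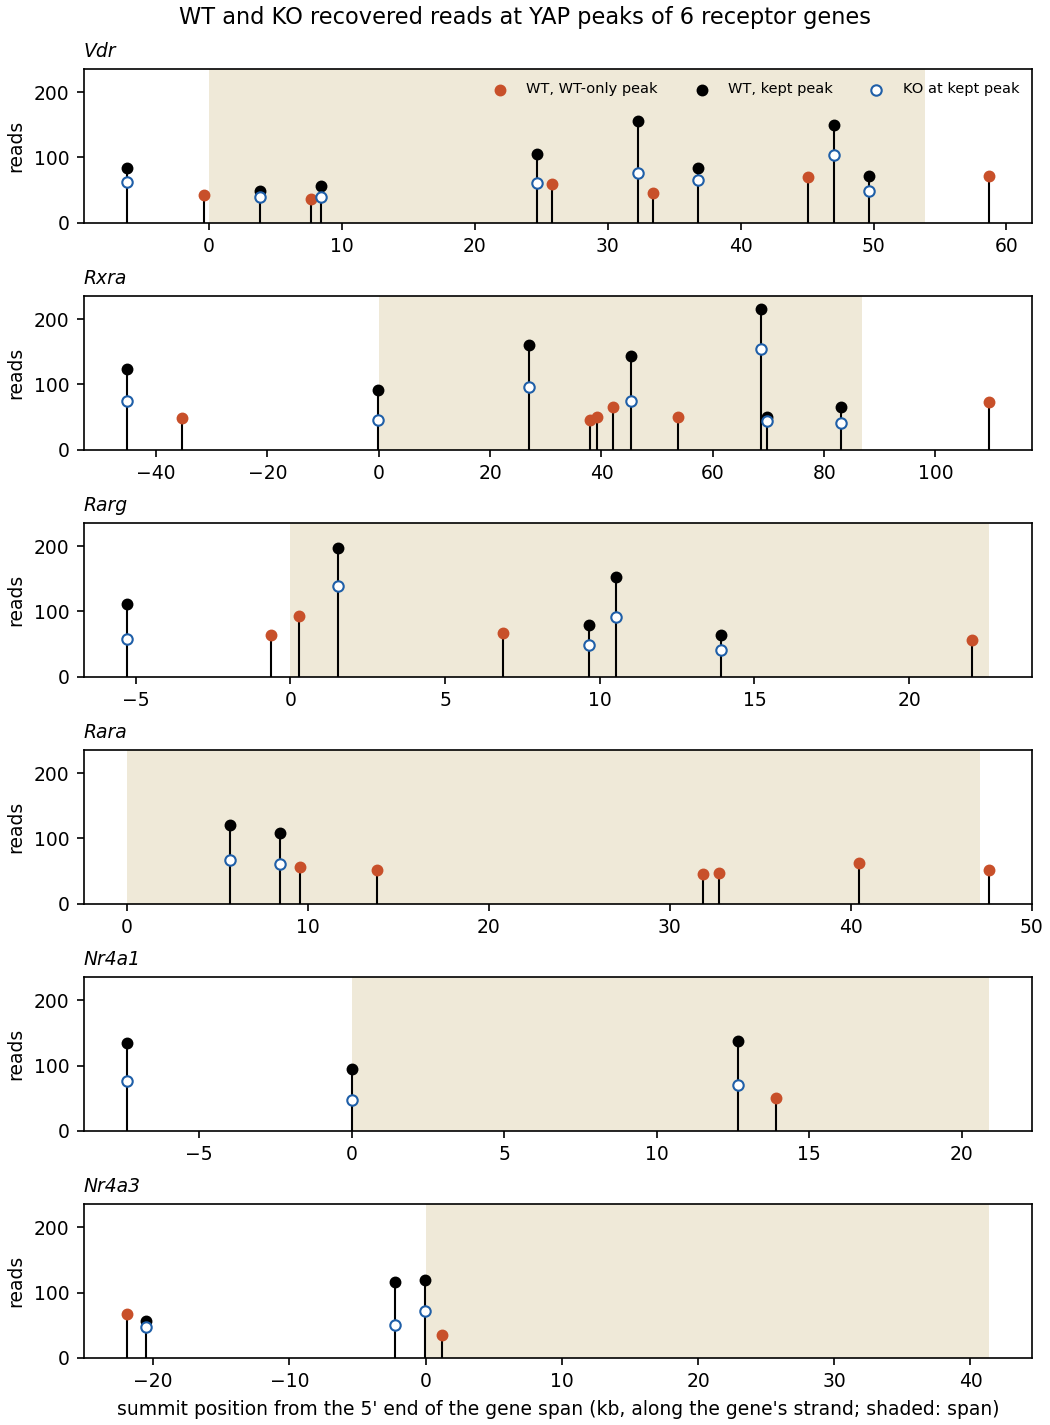
Recovered reads (vertical axis) of each linked peak along 6 receptor genes, with the distance of the summit from the 5′ end of the gene span in kb along the gene's strand (horizontal axis; shading marks the span). Filled points are WT values, black for kept and red for WT-only peaks, and open blue points are KO values at kept peaks. At Vdr and Rxra the kept peaks are spread over the gene, and at Nr4a1 and Nr4a3 the peaks with the most reads lie near or upstream of a start.

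The PPAR genes encode fatty acid receptors that promote lipid metabolism and, in skin, the barrier. Ppara had its strongest site outside the gene, at chr15:85684623-85685415, 49839 bp upstream, with 192 (166 to 221) WT and 119 (98.6 to 142) KO reads and a log2 ratio of -0.74 (counting SE 0.181). This site belonged to a group of 4 upstream peaks from 46322 to 65099 bp away, of which 2 were kept, with 98 and 48 reads at the other. Ppara also had a kept peak of 60 and 37 reads, 243 bp upstream of an annotated start. Ppard, the PPAR most widely expressed in keratinocytes, kept 4 of 5 peaks, against 2.49 from reads. Its strongest peak had 89 and 44 reads. The peak 2 bp from its annotated start, with 49 reads, was the WT-only one. Pparg, the fat cell and sebocyte receptor, had no linked peak, and the nearest WT summit, linked to Syn2, lay 43133 bp from its span.

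Thyroid hormone receptor genes both had kept peaks. Thrb kept 4 of 8, against 4.83 from reads. The kept ones were led by a site at chr14:17735229-17735869 inside the gene with 159 (135 to 186) and 97 (78.7 to 118) reads. Another lay 80251 bp upstream with 125 and 76 reads. The kept peaks of Thrb were its strongest 4, from 82 reads up, and the WT-only ones had 41 to 71 reads. Thra kept 2 of 5, against 1.80 from reads, with 119 and 56 reads at chr11:98750403-98751091 and 75 and 46 at a second site. Its span overlaps that of Nr1d1, the gene of the clock repressor REV-ERBα, by 1075 bp, and no Thra peak lay in the overlap. The 5 ROR and REV-ERB genes of the clock had 37 WT peaks, of which 16 were kept (43.2%, 27.1 to 60.5, against 42.9% from reads).

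The NR4A genes are immediate-early genes, induced within minutes to hours by growth factors and stress, whose products act without a known physiological ligand. At Nr4a1 and Nr4a3 the peak with the most reads lay within 1 kb of an annotated start. Nr4a1 kept 3 of 4 peaks, against 2.93 from reads. Its promoter peak at chr15:101265910-101267025, with the summit 268 bp upstream of an annotated start, had 137 (115 to 162) reads in WT and 70 (54.6 to 88.4) in KO. A site 7363 bp upstream of the span had 135 and 76 reads. Nr4a3 kept 3 of 5 peaks, against 2.40 from reads. Its promoter peak at chr4:48044694-48045534, 243 bp upstream of its start, had 119 (98.6 to 142) and 72 (56.3 to 90.7) reads. A second site 2468 bp upstream of the start had 116 reads in WT but 50 in KO. Its log2 ratio was -1.40 (counting SE 0.292), against -0.81 (0.243) at the promoter peak, although the intervals of the 2 ratios overlap. Of kept peaks with WT reads within 10% of those of the second site, 7.32% were lower. Nr4a2 had 1 WT-only peak of 56 reads. The promoter windows of Nr4a1 and Nr4a3 are shown because their summits lay at like distances upstream of the start; capitals mark CATTCC, the reverse complement of the TEAD core GGAATG.
Nr4a1 promoter, chr15:101266596-101266895, plus strand: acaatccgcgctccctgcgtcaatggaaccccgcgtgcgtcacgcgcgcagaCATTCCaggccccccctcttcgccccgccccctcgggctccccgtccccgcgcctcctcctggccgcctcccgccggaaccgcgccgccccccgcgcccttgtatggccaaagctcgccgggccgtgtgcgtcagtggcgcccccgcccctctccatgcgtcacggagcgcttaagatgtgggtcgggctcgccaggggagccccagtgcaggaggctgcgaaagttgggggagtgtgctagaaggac 
Nr4a3 promoter, chr4:48045055-48045354, plus strand: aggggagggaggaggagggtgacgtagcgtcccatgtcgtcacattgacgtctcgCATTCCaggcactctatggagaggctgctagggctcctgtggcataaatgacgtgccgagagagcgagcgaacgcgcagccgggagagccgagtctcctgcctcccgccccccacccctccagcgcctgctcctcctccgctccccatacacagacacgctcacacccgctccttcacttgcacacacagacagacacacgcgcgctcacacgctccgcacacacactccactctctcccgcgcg
The match began at position -198 in Nr4a1 and -195 in Nr4a3, 70 bp and 48 bp downstream of the WT summits. In both it was part of a shared run of 10 bases, CATTCCAGGC, which was noticed after the windows had been printed. The windows of Ppara, Esrra and Rara, with WT summits 243, 305 and 309 bp upstream of a start, held no match to GGAATG. Each window spans 250 bases before and 50 after a RefSeq start of GRCm38.p6. Windows were found for 36 of the 40 genes, not for Thra, Nr3c1, Hnf4g and Nr5a1. Searching both strands, GGAATG was present in 8 of the 56 windows of receptor genes (14.3%) and in 13.5% of 21044 windows of all genes. The shares were 17.9% against 14.6% for AGGTCA, 8.93% against 7.91% for the E-box CACGTG that BMAL1 can bind, and 3.57% against 7.04% for the AP-1 motif TGANTCA. No match overlapped another in the printed windows.

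The glucocorticoid receptor gene Nr3c1, whose product mediates the anti-inflammatory action of steroids in skin, kept 2 of 7 peaks, against 3.04 from reads. Inside the gene, at chr18:39488711-39489268, it had 101 (82.3 to 123) WT and 52 (38.8 to 68.2) KO reads, a log2 ratio of -1.11 (counting SE 0.292). Outside, 39032 bp from the span, lay a WT-only peak of 87 reads at chr18:39557624-39558831, which with the Rarg promoter peak was 1 of the 2 WT-only receptor peaks of at least 80 reads. The mineralocorticoid receptor gene Nr3c2 had 1 WT-only peak of 37 reads, among the weakest of the set, and the progesterone receptor gene Pgr had none. The oestrogen receptor genes were also poor in sites. Esr1 kept 1 of 2 peaks over a span of 394 kb, with 79 and 44 reads, and Esr2 had 2 WT-only peaks of 43 and 47 reads upstream. Among the oestrogen-related receptors, which drive mitochondrial genes, Esrra had a peak 305 bp upstream of an annotated start with 75 and 46 reads. Esrrg had 1 WT-only peak of 44 reads, 46369 bp away, and Esrrb had none.

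Among the orphan receptors and those of other tissues, Nr6a1 stood out in number. Nr6a1 encodes germ cell nuclear factor, a repressor known from germ cells and embryos. It kept 6 of 10 peaks over 203 kb, and the strongest, at chr2:38739836-38740631, had 142 (120 to 167) and 80 (63.4 to 99.6) reads. Its peak 70 bp upstream of an annotated start had 78 reads in WT and 36 in KO, the lowest KO value of the 59 kept peaks. Nr2f6, which encodes a COUP-TF-related orphan receptor, had 1 peak, at chr8:71381232-71382440 with its summit 277 bp downstream of the start, with 100 (81.4 to 122) WT and 40 (28.6 to 54.5) KO reads. The log2 ratio of -1.57 (counting SE 0.340) was the lowest of all 59, and 1.59% of kept peaks with WT reads within 10% of it were lower. By this measure 3 of the 59 fell in the lowest 10% and 5 in the highest 10%. The KO peak at Nr2f6 was narrower, and the overlap did not reach 50% of both peaks. The promoter window beside it held none of the motifs searched. Nr2f2, which encodes COUP-TFII, kept 1 of 3 distant peaks, 84702 bp away, with 46 and 44 reads. Nr2c2 had a kept peak of 71 and 40 reads near a start, while Nr2c1 (43 reads) and Nr2e3 (56 and 52 reads) had WT-only peaks.

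The 3 genes of the liver X and farnesoid X receptors, which bind oxysterols and bile acids, had 4 linked WT peaks. Of these 3 were kept, against 2.67 from reads. Nr1h4, the bile acid receptor gene FXR, kept 2 of 3 peaks, led by 131 (110 to 155) and 64 (49.3 to 81.7) reads at chr10:89551596-89552300, 18318 bp upstream. Its log2 ratio of -1.16 (counting SE 0.252) was the lowest of the 16 strong receptor sites. Nr1h3, which encodes the oxysterol receptor LXRα, had 1 kept peak of 77 and 45 reads. The KO summits behind the kept peaks of Nr1h3 and Esrra lay 23 and 242 bp outside those genes and were linked to Acp2 and Catsperz, so neither gene counts among the 18 with a linked KO peak. Nr1h2, for LXRβ, had no linked peak, with a WT summit of 43 reads 783 bp away that was linked to Pold1.

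In all, 13 receptor genes had no linked WT peak: Pparg, Nr1h2, Nr1i2, Nr1i3, Hnf4a, Hnf4g, Rxrg, Nr2e1, Nr2f1, Esrrb, Pgr, Nr5a1 and Nr5a2. Hnf4a and Hnf4g are regulators of liver and gut, Nr2e1 of neural stem cells, and Nr5a1 of steroid-producing glands. Nr6a1, known from germ cells and embryos, had 10 linked peaks, and the bile acid receptor gene Nr1h4 had 3. Expression of these genes was not measured here, and a relation to tissue was not tested. The median span of the 13 genes without a peak, 46.5 kb, was close to the 53.9 kb of the genes with one. The nearest WT summit lay 783 bp from the span at Nr1h2 and 2008606 bp at Nr2f1. For Nr5a1 it was the strongest Nr6a1 peak, 25577 bp away.

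Genes that act with the receptors were looked at in 3 lists. Of 21 coregulators, a WT peak was linked to 16 and a KO peak to 12, against 53.2% and 30.1% of all genes. Genes of the same length deciles would give 14.2 and 9.43. Of their 76 WT peaks, 24 were kept (31.6%, 21.4 to 43.3, against 34.2% from reads and 39.1% of all WT peaks). Strong sites lay near the acetyltransferase gene Crebbp, 28744 bp from its span, with 167 and 98 reads, and near Lcor with 154 and 75. Tbl1xr1 and Tbl1x, whose products belong to the corepressor complex, had 7 and 3 WT peaks and no kept one, the strongest with 76 and 70 reads.

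Of 27 genes for ligand synthesis, transport and breakdown, a WT peak was linked to 19 and a KO peak to 8, against 53.2% and 30.1% of all genes and 15.1 and 8.35 genes from length. They kept 11 of 54 peaks (20.4%, 10.6 to 33.5, against 24.0% from reads and 39.1% of all WT peaks). Dio2, which activates thyroid hormone, had 168 and 106 reads at a site 59889 bp away. Cyp26b1, which degrades retinoic acid, had 134 and 53 reads (log2 ratio -1.52) at a site 70679 bp away. The peak near Cyp2r1, a vitamin D hydroxylase gene, lay 639 bp from its span and had 133 and 117 reads, a log2 ratio of -0.20. Dgat1 and Srd5a1 were named because all their peaks were WT-only, the strongest with 79 and 73 reads. Of all WT peaks with 70 to 79 reads, 54.9% were kept.

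Of 19 known receptor target genes, WT peaks were linked to 16 and KO peaks to 16, against 53.2% and 30.1% of all genes and 12.1 and 7.35 genes from length. The list was chosen with earlier results of these data known. Of their 87 WT peaks, 37 were kept (42.5%, 32.0 to 53.6, against 43.0% from reads and 39.1% of all WT peaks). Mylip, an LXR target that degrades the LDL receptor, had 190 and 118 reads at a site 83370 bp away. Sgk1, a kinase gene induced by steroids, had 15 WT peaks, of which 4 were kept, with 163 and 79 reads at the strongest. Scd1 kept 5 of 6 peaks, with 147 and 72 reads at the strongest, and Srebf1 kept none of 3.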

How the data were processed

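Trimmomatic 0.36, SAMtools 1.5, MACS2 2.1.1 and mm10 are named, per the submitters' processing notes, without their roles. No aligner, control, filter or account of the pooling is stated there. Each deposited list gives, per peak, a score (10 times the −log10 q, truncated), a fold (ratio of summit signal to background), −log10 p and −log10 q values, and the distance of the summit from the start. These are the authors' values, and the lists have 36576 (WT) and 14879 (KO) peaks, all with −log10 q of at least 2.01. Library depth is not in the files; the labels give 25 to 50 M reads per sample. Summit reads and local background were solved from the deposited fold and −log10 p with the caller's pseudocount of 1 and a Poisson model. The scaling found was 0.694 for WT and 0.842 for KO, and 100% of peaks matched a whole number of reads within 0.002 of −log10 p, against 0.867% and 0.397% with scaling 3% off. The even-spread background was 9.63 reads in both lists, so reads are comparable in these units only. The procedure was also tested on simulated data.

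Spans came from RefSeq GRCm38.p6 (21627 protein-coding genes). A kept peak was paired with the overlapping KO peak of most reads, and the background was subtracted for ratios. Intervals are exact 95% Clopper-Pearson or Poisson intervals and counting SEs. They cover counting error only, since there is 1 list per genotype. Reads carry no molecular identifiers. Every member with a WT peak is named with its peak of most reads, as are WT-only peaks of at least 80 reads, the strong sites of lowest and highest ratio, and per other list the 3 genes with the most reads and up to 2 without a kept peak (1 gene that this rule names is not reported here); other peaks named were chosen after their values were seen. Members, lists, the limit of 120 reads and the use of recovered reads were chosen with earlier results of these data known. Analyses used Python 3.11.15, NumPy 2.4.6, pandas 2.3.3, SciPy 1.17.1 and matplotlib 3.10.9.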

Additional observations from a re-analysis of the deposited data

How the results depend on the processing

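Of 32 alternative values of the main results, 27 stayed within the interval of the reported value or within 1.5 times a count, and 5 did not. With the WT list reduced by score to the number of KO peaks, 80.7% of the remaining receptor peaks were kept and 17 receptor genes had a WT peak; by construction only the better-scoring peaks remain there. The kept share of the target list was 29.9% with 50% reciprocal overlap, and the cause was not tested. Near a gene end lay 27.5% of the receptor peaks with a window of 5 kb, and 83.0% lay inside the span when links were limited to 10 kb, both by construction. The kept share of receptor peaks was 41.7% to 51.0% under the other alternatives, and the median log2 ratio at strong sites -0.94 to -0.75. Of 29 named peaks, 2 lost their overlap with 50% reciprocal overlap, those of Rara and Nr2f6, and 0 with summits within 200 bp. The expectations from bins of 5 reads and from length ventiles were added after seeing the data. The weakest called peak had 28 reads in WT and 29 in KO, but the reads needed at a site depend on its local background, so a WT-only site may hold KO reads that did not pass there. No paired analysis was possible because there is 1 list for WT and 1 for KO, which also leaves no replicate to omit.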
